A study of Mus musculus with 39 samples.

Results

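Rpph1, Rprl3, Rmrp, Terc and Vaultrc5 are short structured RNAs that work inside ribonucleoprotein particles rather than as templates for protein. These 5 genes, of the 13230 listed in both expression tables, were chosen by name with their steep or peaked distribution along the gradients already seen, so their own values are given as a description and without a test. RNA was sequenced from fractions of liver of wild-type female FVB mice, whose ages the labels do not give. Tissue was broken without detergent, nuclei were spun out, and the remaining homogenate was separated by sedimentation through a continuous sucrose gradient. Gradient 1 gave 17 libraries (fractions 4 to 19 and fraction 21) and gradient 2 gave 22 libraries (fractions 3 to 24), in which fraction 3 is the lightest and fraction 24 the densest. The 2 gradients were independent biological replicates. All libraries were untreated, so the comparisons are between fractions and not between conditions.

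RNase P is the enzyme that trims the leader from the front end of precursor tRNAs, and its RNA subunit, Rpph1, is the catalytic part. RNase MRP has a related RNA, Rmrp, shares most of its protein subunits with RNase P, and acts in the nucleolus on precursor ribosomal RNA. Telomerase RNA, Terc, carries the template that is copied onto chromosome ends and ends in an H/ACA domain of the type found in many guide RNAs of the nucleolus and Cajal body. Vaultrc5 is the RNA of the vault, a large barrel-shaped cytoplasmic particle whose shell is made of the major vault protein. Rprl3 is annotated as a second gene related to the RNase P RNA. Most of these particles are best known from the nucleus, and what was measured here is the RNA left in the homogenate after nuclei were removed.

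Values are TPM, a transcript's share of its library after division by transcript length, and levels compared between genes rest on that length. A library's TPM have a fixed total, between 998099 and 999202 over the genes listed, and each library was made from the same mass of RNA. A low TPM in a fraction therefore cannot be told apart from a large amount of other RNA there. In whole liver, fewer cells of a type and less RNA per cell cannot be told apart either. All 6 hepatocyte markers checked were measured, with a summed TPM between 7036 and 50793 in the zones compared below. Their sum was itself higher at the light end, at 26791 to 50793 in fractions 4 to 7 against 8698 to 9616 in fractions 16 to 19 of gradient 1, and 20755 to 34006 against 15522 to 21293 in gradient 2. Albumin (Alb) carried most of this, with zone means of 31533 and 2909 in gradient 1 and 18984 and 5118 in gradient 2. Cps1, an enzyme of the urea cycle, ran the other way in both gradients (759 and 3284, then 1283 and 5515), as did Ttr and Apoa1 in gradient 2. The table gives no read counts, so depth per library is unknown and no counting interval is given. Fraction 19 of gradient 1 was high beside its neighbors for 4 of the 5 RNAs (all but Terc). The dense minus light differences are also given without fraction 19, which was then left out of both gradients.

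The sequences show which reads could be told apart. In the GENCODE annotation of GRCm38, each of the 5 genes has a single exon, and the transcripts of Rpph1, Rprl3, Rmrp, Terc and Vaultrc5 are 319, 290, 271, 423 and 143 bases long. The TPM came from a RefSeq index, and the RefSeq lengths at hand are 325, 235, 275, 397 and 345 bases, so that the words counted below are those of GENCODE and not of the index. Rpph1 and Rprl3 aligned over 257 columns with 86.4% identity, 14 mismatches and 21 gap columns. The aligned stretches are shown from 5′ to 3′, on the minus strand of chr14:50807511-50807767 and of chr8:3803123-3803358, with capitals at the bases that differ in the alignment.
Rpph1: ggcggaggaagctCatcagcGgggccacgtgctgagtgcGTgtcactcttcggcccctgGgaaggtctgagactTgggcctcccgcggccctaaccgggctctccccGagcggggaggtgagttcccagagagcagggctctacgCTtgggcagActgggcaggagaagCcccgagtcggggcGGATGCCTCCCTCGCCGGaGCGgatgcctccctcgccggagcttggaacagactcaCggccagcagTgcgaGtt
Rprl3: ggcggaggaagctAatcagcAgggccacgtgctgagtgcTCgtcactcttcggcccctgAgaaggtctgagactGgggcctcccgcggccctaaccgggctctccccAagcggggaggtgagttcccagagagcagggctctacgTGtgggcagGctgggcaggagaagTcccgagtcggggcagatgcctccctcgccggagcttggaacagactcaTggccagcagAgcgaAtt
The long run of capitals in Rpph1 is a stretch without a counterpart in Rprl3. Of the 289 words of 31 bases in Rpph1, 13 also occur in Rprl3. The longest identical run is 37 bases, and none of the 245 words of 75 bases in Rpph1, the length of the reads, occurs in Rprl3. A full-length read from either gene therefore covers at least 1 base that differs between them, by these annotated sequences. The larger overlap of Rpph1 is with Ccnb1ip1, a protein-coding gene on the same strand, which covers 284 of the 319 bases of Rpph1 and contains 203 of its 289 words in annotated transcripts. Ccnb1ip1 was not analysed here, and reads from it and from Rpph1 could not be told apart over that stretch.

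Rmrp lies on the minus strand of chr4:43492788-43493058 and is shown with capitals at the 124 of its 271 bases that lie opposite annotated exons of Ccdc107, a protein-coding gene on the other strand.
Rmrp: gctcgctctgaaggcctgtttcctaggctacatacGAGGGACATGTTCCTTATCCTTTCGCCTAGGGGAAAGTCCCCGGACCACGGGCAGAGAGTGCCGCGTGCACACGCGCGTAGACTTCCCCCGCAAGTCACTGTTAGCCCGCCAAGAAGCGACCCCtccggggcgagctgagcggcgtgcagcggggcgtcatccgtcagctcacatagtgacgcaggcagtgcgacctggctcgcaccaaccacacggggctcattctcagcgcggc
Of the 241 words of 31 bases in Rmrp, 94 occur in Ccdc107 in reverse complement and none in another gene on the same strand. The library kit keeps strand. Whether the authors' counting used it is not given in the sources used here, so reads from the capitals could belong to either gene. The TPM of Ccdc107 ranged from 15.1 to 50.5 in gradient 1 and from 24.1 to 59.0 in gradient 2, with the highest value in fraction 8 of gradient 1 and fraction 9 of gradient 2. Its dense minus light difference, in the zones defined below, was 0.07 ± 0.35 (limma standard error, adjusted p = 0.87).

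Terc lies on the minus strand of chr3:96414437-96414859. Its first 60 and last 60 bases are shown, with capitals at the letters CTAACCCT, the template that is copied into telomere repeats, and at the ACA box near the end.
Terc, first 60 bases: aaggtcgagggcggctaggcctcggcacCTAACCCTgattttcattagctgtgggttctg
Terc, last 60 bases: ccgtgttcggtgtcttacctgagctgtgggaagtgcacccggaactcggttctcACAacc
On the transcript strand, CTAACCCT was found in the first 60 bases of 0.0565% of 141515 annotated transcripts, and ACA in the place of the box, directly before the last 3 bases, in 2.45%. Neither Terc nor Vaultrc5 shares a word of 31 bases with another annotated gene.

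Rpph1 had the highest TPM of all genes at the light end of both gradients. It held 24.96% of TPM in fraction 4 of gradient 1 and 22.1% in fraction 3 of gradient 2, and it ranked first in fractions 4 and 5 of both. In the light zone, fractions 4 to 7, its TPM was 249286, 61207, 16303 and 5276 in gradient 1. In gradient 2 the same fractions had 134178, 66041, 19219 and 9198. Every step within the light zone was downward in both gradients.

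In the dense zone, fractions 16 to 19, the TPM of Rpph1 was far lower. Its TPM there was 360, 353, 376 and 1409 in gradient 1. In gradient 2 it was 570, 354, 534 and 393. No dense fraction reached the lowest light fraction. The mean of log2(TPM + 1) over a zone was taken as its level, and by this measure the dense minus light difference of Rpph1 was -6.17 ± 0.16 (SD, n = 2 gradients) on the log2 scale, -6.05 in gradient 1 and -6.28 in gradient 2. The median difference of all 11754 genes tested was -0.43, and limma called 39.6% of them lower and 22.3% higher in the dense zone at an adjusted p under 0.05.

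**Figure D1:**
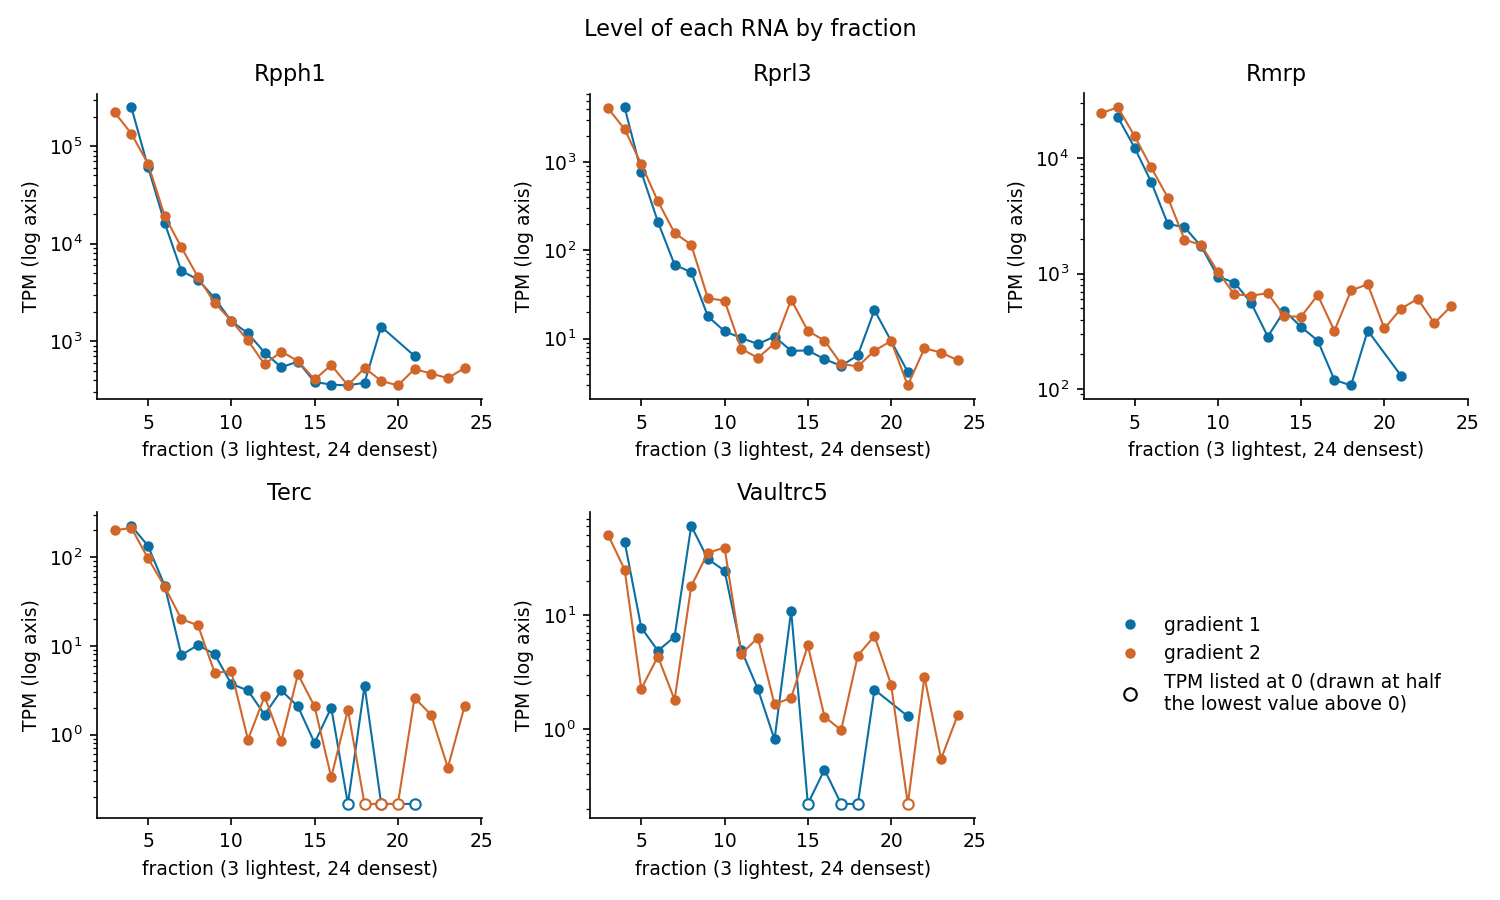
TPM on a log axis against fraction number, from light to dense, for each of the 5 RNAs in gradient 1 (blue) and gradient 2 (orange), 1 point per library and open circles for values listed at 0. Rpph1, Rprl3, Rmrp and Terc fell most steeply over fractions 4 to 7 and more slowly after that, whereas Vaultrc5 had a separate maximum in fractions 8 to 10 of both gradients.

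The fall of Rpph1 was not of one rate. By the slope of log2(TPM + 1), it dropped 3.63-fold per fraction over fractions 4 to 7 of gradient 1 and 2.53-fold in gradient 2. Over fractions 7 to 10 the drop was 1.49-fold and 1.79-fold per fraction. From fraction 13 to 19 the slope was 0.09 and -0.13 on the log2 scale per fraction, which is no common direction. In gradient 2, where libraries from the bottom were measured, TPM stayed between 353 and 533 over fractions 20 to 24. The rise in fraction 19 of gradient 1, to 3.75 times the value in fraction 18, had no counterpart in gradient 2, where the ratio was 0.74. Without fraction 19 of either gradient, the change of Rpph1 between zones was -6.38.

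Rprl3 ran nearly parallel to Rpph1 at a far lower level. Its TPM in the light zone was 4178, 775, 210 and 68.8 in gradient 1. In gradient 2 it was 2369, 948, 360 and 158. The dense zone had 5.84, 4.89, 6.45 and 21.0 in gradient 1 and 9.48, 5.15, 4.83 and 7.27 in gradient 2. The groups did not overlap, and the highest dense value was again fraction 19 of gradient 1. The change from light to dense was -6.01 ± 0.45 (SD, n = 2), and -6.25 without fraction 19.

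The TPM of Rprl3 was 1.27% to 1.87% of that of Rpph1 in all 8 light libraries. Over the 17 fractions that both gradients share, the share ranged from 0.59% to 1.94% in gradient 1 and from 0.56% to 4.40% in gradient 2. The highest share, in fraction 14 of gradient 2, came from an Rprl3 value of 27.6 between values of 8.78 and 12.2. Along the shared fractions the log2 levels of the pair correlated with Pearson's R of 0.98 and 0.97. How the reads of the pair were assigned was not tested.

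Rprl1 and Rprl2, which are further genes related to RNase P RNA, were close to their floor. Rprl1 had 25.7 TPM in fraction 4 of gradient 1 and was listed at 0 in every middle and dense library of both gradients. Rprl2 was highest in fraction 4 of gradient 1 and fraction 3 of gradient 2 and was listed at 0 in all 8 dense libraries. Rprl1 and Rprl2 are each 92.1% identical to Rprl3 over 290 aligned columns. Of the 260 words of 31 bases in Rprl3, 28 occur in Rprl2, with a longest identical run of 56 bases, whereas Rprl1 shares no word with Rprl3.

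Rmrp was also highest at the light end but fell less steeply than Rpph1. Its TPM in the light zone was 22712, 12382, 6241 and 2693 in gradient 1. In gradient 2 it was 27586, 15615, 8335 and 4565, with 24636 in fraction 3. The dense zone had 263, 120, 108 and 321 in gradient 1 and 652, 320, 715 and 810 in gradient 2. The zones did not overlap in either gradient. Of the 4 dense values of gradient 2, 3 were above all those of gradient 1, and the change was -5.50 in gradient 1 and -4.26 in gradient 2 (mean -4.88 ± 0.88, SD). Without fraction 19 the mean was -5.09.

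The decline of Rmrp over fractions 4 to 7 was 2.03-fold per fraction in gradient 1 and 1.83-fold in gradient 2, below the values of Rpph1 in both. The TPM of Rmrp relative to Rpph1 therefore rose along the top of the gradient. It was 9.11% in fraction 4 and 51.04% in fraction 7 of gradient 1, and 20.6% and 49.6% in gradient 2. In the middle zone, fractions 10 to 13, it lay between 52.7% and 72.7% in gradient 1 and between 64.0% and 111% in gradient 2. The gradients then parted. The share in the dense zone ran from 73.1% down to 22.8% in gradient 1, and from 90.2% to 206% in gradient 2.

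**Figure D2:**
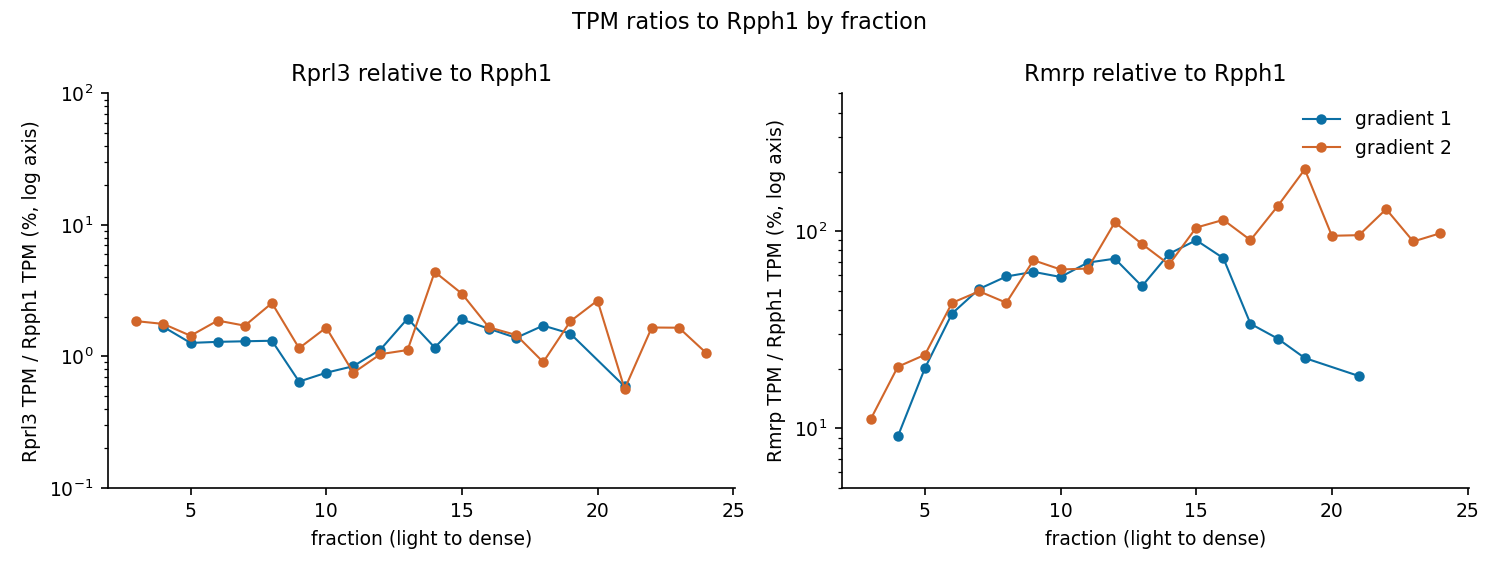
TPM of Rprl3 (left) and of Rmrp (right) as a percent of the TPM of Rpph1 in the same library, on log axes, against fraction number, with 1 point per library. Rprl3 stayed between 0.56% and 4.40% of Rpph1 over the shared fractions, whereas Rmrp rose from 9.11% and 20.6% in fraction 4 to about equal values in fraction 7 (51.04% and 49.6%), and the gradients separated in the dense zone.

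Terc was present at a low level with the same light position. Its TPM in the light zone was 225, 134, 47.7 and 7.88 in gradient 1 and 213, 96.9, 46.4 and 20.0 in gradient 2. The dense zone had 2.01, 0, 3.56 and 0 in gradient 1 and 0.33, 1.90, 0 and 0 in gradient 2. Light and dense values did not overlap. The change was -5.28 ± 0.44 (SD, n = 2), and -5.04 without fraction 19. It depends on the pseudocount because of the values listed at 0, and was -7.28 with a pseudocount of 0.1. Terc was listed at 0 in 3 libraries of each gradient, all between fractions 17 and 21.

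Vaultrc5 differed in shape from the other four. It had one maximum at the top, with 44.0 TPM in fraction 4 of gradient 1 and 50.6 in fraction 3 of gradient 2. Over fractions 5 to 7 it had 7.73, 4.85 and 6.43 in gradient 1 and 2.25, 4.32 and 1.80 in gradient 2. Over fractions 8 to 10 it rose again, to 60.3, 30.9 and 24.4 in gradient 1 and to 17.8, 35.0 and 39.0 in gradient 2. All 6 values of fractions 8 to 10 were above all 6 of fractions 5 to 7. These windows follow the shape already seen, so their separation is a description only. The ratio of the means of these groups was 6.08 in gradient 1 and 11.0 in gradient 2. For the other four RNAs the same ratio was between 0.08 and 0.24.

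The dense end of the profile of Vaultrc5 was low and uneven. The dense zone had 0.44, 0, 0 and 2.21 in gradient 1 and 1.28, 0.98, 4.40 and 6.53 in gradient 2. Its light and dense zones overlapped in gradient 2. The change from light to dense was -2.96 in gradient 1 and -0.69 in gradient 2, with a mean of -1.83 ± 1.60 (SD), so its size was not determined. The change from light to middle was -1.07 in gradient 1 and 0.44 in gradient 2, which is no common direction. The change from light to dense was -1.95 with the 5 RNAs left out of the library totals and -2.19 without fraction 19.

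All 5 RNAs were lower in the dense than in the light zone in both gradients, and the mean change stayed negative under each scaling tried. Of all genes tested, 56.4% were likewise lower in both gradients, and as the 5 RNAs were selected on this contrast, nothing is read from their count. The same holds for their zones that did not overlap, as the share of all genes without overlap was not counted. Of the genes called by limma, 36.0% were higher as deposited and 50.6% after quantile normalization, which moved the median change of all genes from -0.43 to -0.05. After that normalization the changes of Rpph1, Rprl3, Rmrp, Terc and Vaultrc5 were -5.79, -5.95, -4.70, -5.16 and -1.32.

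The center of sedimentation, the mean fraction number weighted by a gene's TPM over the 17 shared fractions, placed the RNAs in an order. It was 4.73 ± 0.31 (SD, n = 2) for Rprl3 and 4.81 ± 0.22 for Rpph1. Within the same gradient Rprl3 was slightly lighter, at 4.52 against 4.65 in gradient 1 and 4.95 against 4.97 in gradient 2. This difference was not tested. Terc followed at 5.24 ± 0.11 and Rmrp at 5.90 ± 0.21, and the values of the 2 gradients did not overlap between Rpph1, Terc and Rmrp. Vaultrc5 had 8.72 ± 1.01. The median gene had a center of 11.3 in each gradient. After quantile normalization, which gives the most abundant gene of each library the same value, the center of Rpph1 was 5.45 and that of Terc 5.04, the reverse order.

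Few genes were lighter than Rpph1, Terc or Rmrp, and more were lighter than Vaultrc5. Of 11306 genes with a center, 4 were lighter than Rpph1 in gradient 1 and 17 in gradient 2. For Rmrp the counts were 24 and 52, and for Terc they were 10 and 31. For Vaultrc5 they were 553 and 1778. The light zone held 95.6% and 94.1% of the summed TPM of Rpph1 over the shared fractions, 96.8% and 93.6% of that of Rprl3, 91.5% and 89.7% of that of Terc, and 83.6% and 84.1% of that of Rmrp. It held 31.3% and 21.1% of that of Vaultrc5. As each library was made from the same mass of RNA, these are shares of summed TPM and not of molecules.

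**Figure D3:**
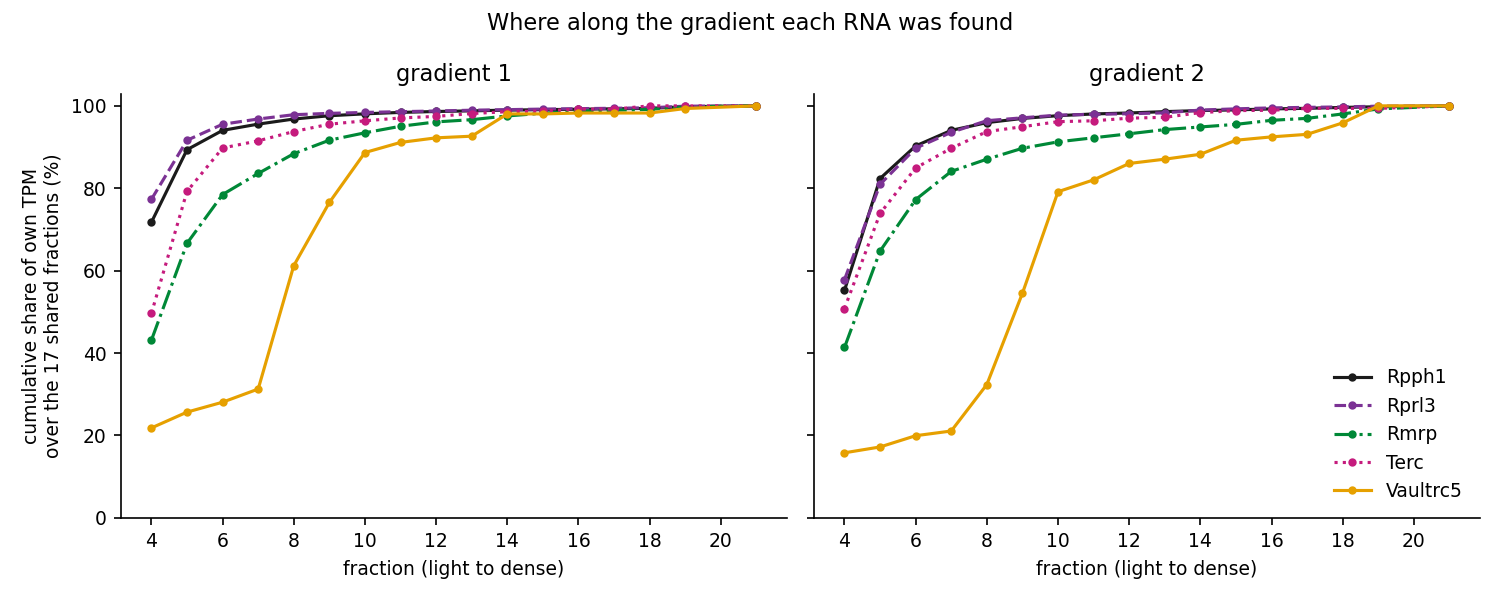
Cumulative share of each RNA's own TPM, in percent, against fraction number over the 17 fractions that both gradients share, with gradient 1 on the left and gradient 2 on the right. The curves of Rpph1 and Rprl3 passed 80% by fraction 5, Terc and Rmrp followed, and the curve of Vaultrc5 rose most over fractions 8 to 10.

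Together the 5 RNAs made up 27.7% of TPM in fraction 4 of gradient 1, 25.05% in fraction 3 and 16.5% in fraction 4 of gradient 2. Their share was under 1% from fraction 7 in gradient 1 and from fraction 8 in gradient 2. Rpph1 was 90.2% of the sum in fraction 4 of gradient 1, 52.0% in fraction 15 and 83.9% in fraction 21. In gradient 2 it was 88.4% in fraction 3, 32.3% in fraction 19 and 50.1% in fraction 24. Because totals are fixed, the TPM of every other gene in fraction 4 of gradient 1 would be 1.38 times as high with the 5 RNAs left out, and 1.20 times in gradient 2. By mean TPM over a gradient the order was Rpph1 (20439 and 21184), Rmrp (3098 and 4236), Rprl3 (318 and 374), Terc (26.6 and 28.4) and Vaultrc5 (11.8 and 9.81). Neighbors in this order were further apart than the 2 gradients of either gene. The place of Vaultrc5 below Terc rests on the length its TPM was divided by, which is 345 bases in RefSeq and 143 in GENCODE, and is therefore not settled.

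Fraction 19 of gradient 1 was high for 4 of the RNAs. Against the mean of fractions 18 and 21, fraction 19 was 2.60 times as high for Rpph1, 3.95 times for Rprl3, 2.69 times for Rmrp and 3.42 times for Vaultrc5, whose TPM there was 2.21. Terc was listed at 0 in it. The median over all genes in the same library was 0.99 and the 95th percentile 2.01. In gradient 2 the ratios were 0.75, 1.87, 1.34 and 2.97, against a 95th percentile of 1.49.

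The log2 profiles of Rpph1, Rprl3, Rmrp and Terc correlated with each other at Pearson's R between 0.91 and 0.98 over the 17 shared fractions of each gradient. These points share libraries, and neighboring fractions are not independent. The correlation of Vaultrc5 with the other four was 0.57 to 0.74 in gradient 1 and 0.28 to 0.34 in gradient 2. Between the gradients, each RNA's profile correlated with itself at 0.97 for Rpph1, 0.95 for Rprl3, 0.94 for Rmrp, 0.89 for Terc and 0.71 for Vaultrc5.

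Among 11305 other genes, those most like each RNA were chosen by the lower of its 2 correlations. For Rpph1 they were Aplp2 (0.97), a membrane protein related to the amyloid precursor, Mrc1 (0.97), the macrophage mannose receptor, Rprl3 (0.97) and Cyp51 (0.97), an enzyme of sterol synthesis. For Rprl3 they were Rpph1, 2900097C17Rik (0.95), Plxnc1 (0.95) and Tmem87a (0.95). For Rmrp they were the transporter Slco1a4 (0.97), the iron exporter Slc40a1 (0.97), Alcam (0.97) and Cdh2 (0.97), and for Terc they were Stard10 (0.95), 2900097C17Rik (0.94), the lysosomal enzyme Manba (0.94) and Rmi2 (0.94). For Vaultrc5 the likeness was weaker: Hsbp1l1 (0.82), Ostc (0.79), a subunit of the oligosaccharyltransferase, Brdt (0.77) and Gm1943 (0.75). Likeness of shape took no account of level. In fraction 4, Aplp2 had 89.9 and 96.4 TPM in the gradients in which Rpph1 had 249286 and 134178.

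Next to the RNAs, 4 lists of mRNAs were examined: 3 for proteins of the RNase P and MRP, telomerase and H/ACA, and vault particles, and 1 for proteins of tRNA end processing and of the La and Ro type, most of which are not part of these particles. Of 32 genes tested, 18 were higher in the dense than in the light zone and 4 lower (limma, adjusted p under 0.05 over all genes), and 10 passed in neither direction, with a median change of 0.86 against -0.43 for all genes, of which 22.3% were higher. After quantile normalization 25 were higher and 3 lower, beside 30.7% higher and 29.9% lower among all genes. What was measured is the mRNA and not the protein.

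Of 10 tested mRNAs for protein subunits of RNase P and RNase MRP, 6 were higher and 1 was lower. Rpp25l, a relative of the subunit Rpp25, rose by 2.26 ± 0.47 (limma standard error, adjusted p = 0.0080), with mean TPM of 19.9 and 12.2 in the light zones of the 2 gradients and 112 and 54.5 in the dense zones. Rpp38, a subunit of both enzymes, rose by 1.68 ± 0.29 (adjusted p = 0.0038). Pop5 was highest in the middle zone, with mean TPM of 139 and 133, against 45.5 and 42.1 in the light and 53.6 and 52.0 in the dense zones. Its dense minus light difference of 0.50 was called as deposited (adjusted p = 0.027), but not with the 5 RNAs left out of the totals (0.37, adjusted p = 0.068). Pop7, Pop4 and Rpp40 rose by 1.02, 0.95 and 0.95. Rpp14 was the one that fell, by 1.39 ± 0.21 (adjusted p = 0.0026). Pop1, the largest subunit, had a change of 1.00 (adjusted p = 0.055, and 0.00089 with the gradient as a block), Rpp30 one of 0.71 (0.077 and 0.043 in the same fits), and Rpp21 one of 0.33 (0.24 and 0.12). Rpp21 was highest in the middle zone, with mean TPM of 91.1 and 71.1.

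For telomerase and the H/ACA particle, 5 of 10 mRNAs were higher in the dense zone and 1 was lower. Those for the core H/ACA proteins Dkc1, Gar1 and Nop10 rose by 0.79, 1.10 and 0.94, those for the assembly factor Shq1 and the RNA-trimming enzyme Parn by 1.32 and 1.26. The fourth core protein, Nhp2, had a change of -0.03 (adjusted p = 0.89), with 0.23 in gradient 1 and -0.30 in gradient 2. Naf1, another assembly factor, had one of 0.37 (adjusted p = 0.39) and Wrap53, which brings telomerase to Cajal bodies, one of -0.36 (adjusted p = 0.29, and 0.036 with the gradient as a block). Nop10 and Nhp2 were highest in the middle zone, with mean TPM of 225 and 187 for Nop10 and 78.9 and 84.1 for Nhp2. The middle zone of Nhp2 was higher than its light zone by 1.36 (limma adjusted p = 0.0036). Papd5, an enzyme that adds tails to the ends of noncoding RNAs, fell by 1.19 ± 0.18 (adjusted p = 0.0027). Tert, the catalytic subunit of telomerase, had a mean TPM of 4.16 and 4.20 over the gradients and a change of 0.44 ± 0.20 (adjusted p = 0.10, and 0.033 with the gradient as a block).

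Of 4 mRNAs linked to vaults, 3 were higher in the dense zone and none was lower. Mvp, which encodes the major vault protein, rose by 3.22 ± 0.27 (adjusted p = 0.00046), with mean TPM of 12.1 and 10.0 in the light zones and 124 and 82.4 in the dense zones. It was highest in the last library of each gradient, fraction 21 and fraction 24. Tep1, which encodes another vault protein, rose by 1.12 ± 0.29 (adjusted p = 0.017), and Nsun2, an RNA methyltransferase that modifies vault RNA, by 0.52 ± 0.17 (adjusted p = 0.035, and 0.076 with the 5 RNAs left out of the totals). Nsun2 was highest in the middle zone, with mean TPM of 93.6 and 97.6. Parp4, the vault poly(ADP-ribose) polymerase, had a change of 0.42 (adjusted p = 0.16, and 0.018 with the block). Among 8 mRNAs for tRNA end processing and RNA-binding proteins of the La and Ro type, 4 were higher and 2 lower. Ssb, the La protein, rose by 2.63, and Elac2, which trims the back end of precursor tRNAs, by 2.29. Hsd17b10 and Trmt10c, which encode subunits of the protein-only mitochondrial RNase P, rose by 2.04 and 0.94. The catalytic subunit of that enzyme, Prorp, listed as 1110008L16Rik, had a change of 0.25 (adjusted p = 0.39), and Trnt1, which adds the CCA end to tRNAs, had one of 0.30 (adjusted p = 0.28). Elac1, a relative of Elac2, fell by 1.19, and Trove2, the Ro protein, fell by 1.14 (adjusted p = 0.0071, and 0.064 after quantile normalization).

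**Figure D4:**
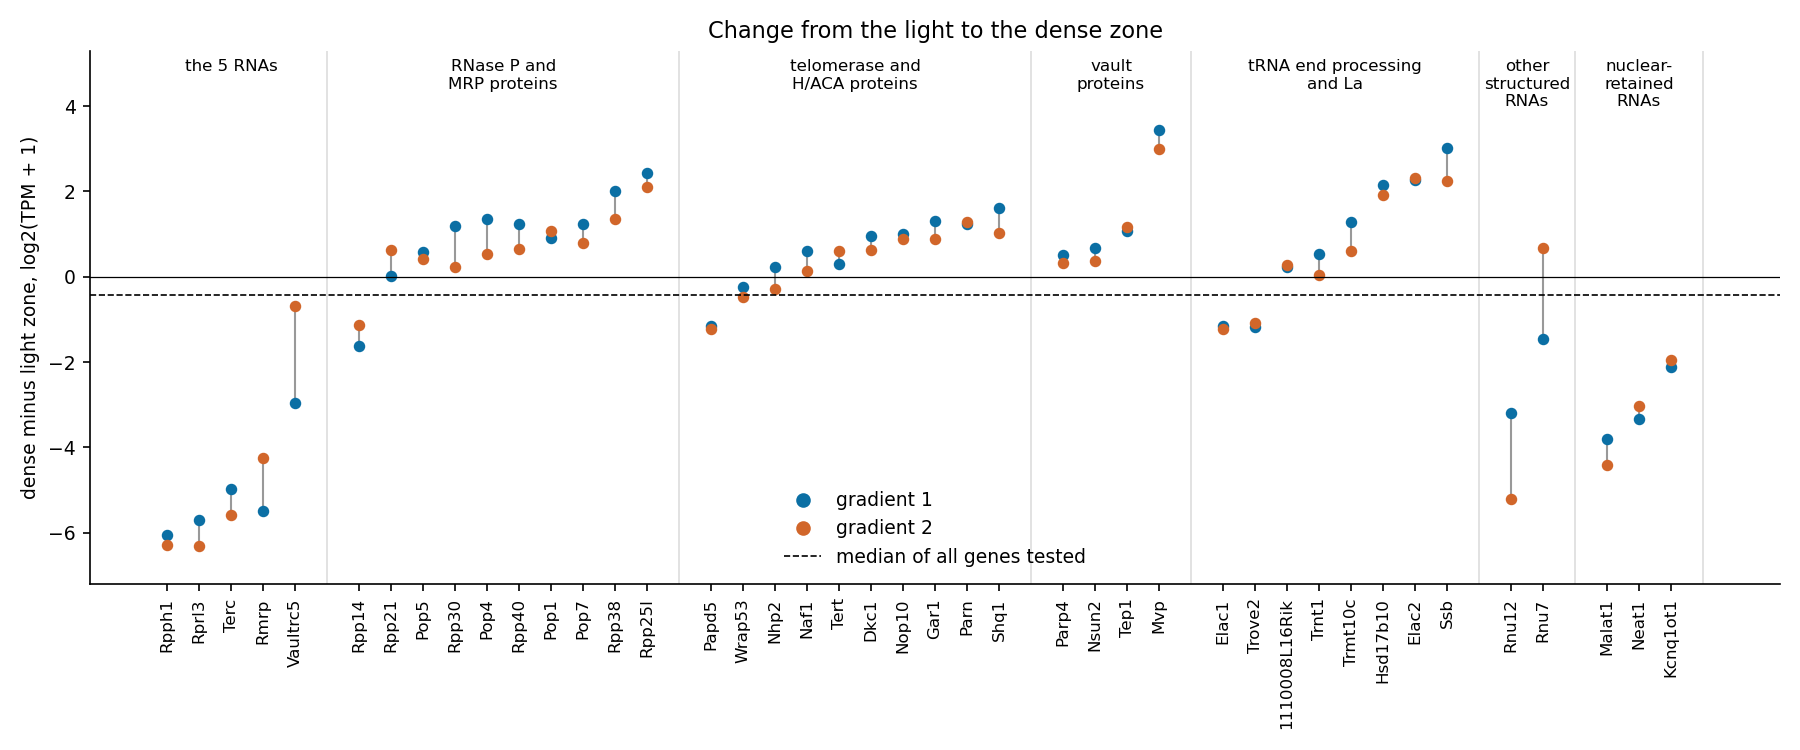
Difference between the dense and the light zone in log2(TPM + 1), with 1 point per gradient, for the 5 RNAs, the mRNAs of the 4 protein lists, and 2 lists of other RNAs. The 5 RNAs lie between -6.33 and -0.69, most mRNAs of the protein lists lie above 0, the dashed line is the median of all genes tested (-0.43), and genes listed at 0 in all dense libraries of a gradient are not drawn.

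Other structured RNAs shared the light position in part. Of 17 small RNAs listed, 6 were in both tables and 5 were tested, of which 4 were lower and none was higher in the dense zone (limma, also none higher at an unadjusted p under 0.05), beside 39.6% lower among all genes. Of those 4, 3 (Rprl1, Rprl2 and Rnu11) were at 0 in all dense libraries and passed the filter on mean TPM only through lighter fractions, so their direction was fixed by the filter and 1 call is left. Rnu11, an RNA of the minor spliceosome, had 353 TPM in fraction 4 of gradient 1 and 263 in gradient 2, and was listed at 0 in all dense libraries. Rnu12, of the same spliceosome, had 204 and 1574 in fraction 4 and fell by 4.21 ± 0.62 (adjusted p = 0.0022). Rnu7, which takes part in histone mRNA processing, was at 0 in fraction 4 of both gradients and highest in fraction 13 of gradient 1 and fraction 8 of gradient 2. Its middle zone was higher than its light zone by 2.82 (adjusted p = 0.011).

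Of 75 small nucleolar and Cajal body RNAs in both tables, 69 were tested, 41 were lower and none was higher in the dense zone (limma, also none higher at an unadjusted p under 0.05), with a median change of -1.83, beside 39.6% lower and a median of -0.43 among all genes. Of the 41, 20 had a mean TPM under 1 in the dense zone of both gradients and passed the filter only through other fractions, so their direction carries no weight. That leaves 21 calls, and the median of -1.83 still includes the 20. The most abundant of the 75, Scarna2, had its highest TPM in fraction 8 of both gradients, 4547 and 3095, and a change of -1.26 ± 0.46 (adjusted p = 0.056, and 0.0057 with the gradient as a block).

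RNAs known to stay in the nucleus were also light. The summed TPM of Malat1, Neat1 and Kcnq1ot1 was 179 to 388 in the light and 15.4 to 28.4 in the dense zone of gradient 1, and 338 to 782 and 24.6 to 29.4 in gradient 2. None of the 3 was at 0 in its zone mean, and all 3 fell, with changes of -4.11 ± 0.41 for Malat1 (adjusted p = 0.00066), -3.18 for Neat1 and -2.03 for Kcnq1ot1. They shared the direction between zones with Rpph1, Rprl3, Rmrp and Terc, but were centered further down, at 7.06 and 6.72 for Malat1, 7.25 and 7.70 for Neat1, and 8.44 and 8.40 for Kcnq1ot1. Malat1 was higher in fraction 5 than in fraction 4 of both gradients (342 against 328, and 724 against 480 TPM). The part of RNA from broken nuclei in the levels of these RNAs was not tested. Markers of other liver cells were higher at the light end too, each one measured in both gradients, as were 57.3% of all genes tested by mean TPM. In gradient 1 the sum of 5 Kupffer cell markers was 128 to 163 in the light and 39.5 to 45.4 in the dense zone, that of 3 stellate cell markers 28.3 to 51.4 and 5.15 to 10.4, that of 3 sinusoidal endothelial markers 53.0 to 64.7 and 24.6 to 31.4, and the 1 erythroid marker measured of 3 had 329 to 491 and 69.3 to 99.5. In gradient 2 the same sums were 112 to 162 and 44.2 to 50.96, 32.0 to 73.4 and 14.0 to 18.3, 30.2 to 39.5 and 14.2 to 20.5, and 250 to 365 and 57.7 to 72.9. Their part in the light position was not tested. Parp2, which lies 74 bases from Rpph1 on the other strand, ran the other way, with 2.46 and 6.65 TPM in fraction 4 and a change of 0.74 ± 0.30 (adjusted p = 0.071, and 0.046 with the gradient as a block).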

How the data were processed

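Liver RNA was sequenced from 39 gradient fractions as stranded libraries depleted of ribosomal RNA. The authors demultiplexed reads (bcl2fastq 2.16.0.10, per the processing notes), pseudo-aligned them to an mm10 RefSeq index with Kallisto, and deposited TPM per gene leaving out genes whose TPM never passed 1. The Kallisto version, and how transcripts were summed to genes, are not given in the sources used here. TPM hold no counts, so depth is unknown and precision comes from the spread between 2 gradients.

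Samples were grouped by fraction and gradient from their titles. Levels of log2(TPM + 1) were averaged over 4 fractions per zone (4 to 7, 10 to 13, 16 to 19), and zones were compared with limma 3.58.1 (R 4.3.3, trend in eBayes, Benjamini-Hochberg adjustment) for 11754 genes that averaged 1 TPM or more. On this scale, differences of low genes come out too small. Each gradient was 1 homogenate, so its zones are paired. Their deviations correlated (r = 0.665, 0.540 and 0.798 over genes), so a fit with the gradient as a block was also made. The RNAs and all gene lists were chosen with earlier results of these data known, and no test was made of the 5 RNAs. Genes named are the 5 RNAs, members of the lists, neighbors within 1 kb, the most abundant small nucleolar or Cajal body RNA, and the 4 genes most alike to each RNA. Loci and sequences come from the GENCODE annotation and genome of GRCm38, the build that mm10 names. The locus and sequence of Vaultrc5 are not reported here. Alternatives were another pseudocount, filters, scalings, zones, shifts of fraction numbers, and single gradients. The totals without the 5 RNAs and the zone without fraction 19 were chosen after seeing the data.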

Additional observations from a re-analysis of the deposited data

How the results depend on the processing

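The changes of Rpph1, Rprl3, Rmrp, Terc and Vaultrc5 between the light and dense zones were negative under every alternative run. They moved by more than 1 SD with narrower zones for Rpph1 (-6.91), Rprl3 (-6.80) and Terc (-6.12), with quantile normalization for Rpph1 (-5.79), without fraction 19 for Rpph1 (-6.38), and for Terc with a pseudocount of 0.1 (-7.28) or totals without the 50 most abundant genes (-5.77). Single gradients gave changes from -6.33 to -0.69. The change of Vaultrc5 from light to middle was -1.07 in gradient 1 and 0.44 in gradient 2.

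With all 22 fractions of gradient 2, the centers averaged over the 2 gradients were 4.38 for Rpph1, 4.28 for Rprl3, 5.65 for Rmrp and 4.92 for Terc. Fraction 3 then enters, and gradient 2 alone gave 4.10, 4.04, 5.56 and 4.69. The centers that follow are also means of the 2 gradients. Quantile normalization gave 5.45 for Rpph1, 6.22 for Rmrp and 5.04 for Terc. Totals without the 50 most abundant genes gave 5.67 for Rmrp and 5.07 for Terc. Gradient 2 shifted down by 1 fraction gave 6.20 and 5.39. With a mean TPM of at least 10, fewer genes were tested, and Vaultrc5 had no value. Genes called lower in the dense zone then numbered 2570 of 7233 among all genes (35.5%) and 2 among the protein mRNAs. They numbered 2 of 3 other structured RNAs and 21 of 26 small nucleolar and Cajal body RNAs. Genes can pass this filter too through their light fractions alone, as Rnu11 did, so these counts of lower genes carry no more weight than those as deposited.

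With the gradient as a replicate block, 22 protein mRNAs were higher and 5 lower, in place of 18 and 4, and 47 small nucleolar and Cajal body RNAs were lower, in place of 41, while among all genes 30.5% were then higher and 50.02% lower, in place of 22.3% and 39.6%. Calls gained under the block were Pop1, Rpp30, Tert, Wrap53 (-0.36, adjusted p = 0.036), Parp4, Parp2 and Scarna2, and no other named call changed. Totals without the 5 RNAs ended the calls of Pop5 (0.37, limma adjusted p = 0.068) and Nsun2 (0.39, 0.076), and quantile normalization that of Trove2 (-0.50, 0.064). Quantile normalization made calls of Pop1, Rpp30, Tert, Naf1, Parp4, Prorp, Trnt1 and Parp2 (limma adjusted p from 0.0044 to 0.039), so that 25 protein mRNAs were higher. Calls were also gained by Pop1 with narrower zones (1.07, 0.047), by Parp2 without fraction 19, and by Scarna2 without fraction 19 and with totals that left out the 5 RNAs or the 50 most abundant genes. Dense minus light differences not called as deposited turned sign for 4 genes: Nhp2 (0.17 with quantile normalization, 0.34 with narrower zones, 0.0069 without fraction 19, -0.30 to 0.23 in single gradients), Wrap53 (0.059 with quantile normalization), Rnu7 (0.16 with narrower zones, -1.46 to 0.67 in single gradients) and Ccdc107 (-0.0040 and -0.056 without the 50 most abundant genes and without the 5 RNAs, -0.42 to 0.56 in single gradients). The causes were not tested. Single gradients gave values without a test.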
